A study of Mus musculus with 8 samples.

Results

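Expression of 9 genes that make, carry or break down retinoic acid was measured in ATCL7 cells: Rdh10, Dhrs3, Aldh1a1, Aldh1a2, Aldh1a3, Aldh1a7, Crabp1, Crabp2 and Cyp26b1. They were chosen by function, but with earlier results of these data known, and matched by symbol to the deposited annotation. All 9 were found, among 20719 genes with a symbol. ATCL7 is an immortalized line from a mouse adrenocortical tumour, labelled male. All samples were kept for 24 h in medium with 0.025% each of fetal bovine and horse serum, with 0.5 µM BIO in one group and 0.01% DMSO as vehicle in the other. BIO (6-bromoindirubin-3'-oxime) is an inhibitor of glycogen synthase kinase 3, used to raise β-catenin signalling. The titles give 4 BIO and 4 vehicle samples in 4 numbered pairs. The subject of the series is the Wnt/β-catenin pathway. Each sample was RNA from 250000 cells of the single line, read on 1 array of the Mouse Gene 1.1 ST strip format. The deposited array numbers place all BIO samples before all vehicle samples. Whether these numbers follow the order of processing, and which arrays shared a strip, is not stated in the sources used here. Any share of array order or strip in the BIO differences was not tested.

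Retinoic acid is made from retinol in 2 oxidation steps. A retinol dehydrogenase such as RDH10 forms retinal, which DHRS3 can reduce back to retinol, and retinal dehydrogenases of the ALDH1A family turn retinal into retinoic acid. The acid is carried in the cytosol by the binding proteins CRABP1 and CRABP2, acts on the nuclear receptors RAR and RXR, and is cleared by enzymes of the CYP26 family. Cyp26 and Dhrs3 genes are known in several tissues to be switched on by retinoic acid itself, so that they limit its level.

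The array medians lay between 5.70 and 5.73 log2. Precision is set by the small number of arrays. Axin2, a feedback inhibitor induced by β-catenin, was 8.09-fold higher in BIO. Of 16 markers of adrenocortical cells, 11 had a mean above the array medians, among them Nr5a1, Star, Cyp11a1 and Mc2r. Hsd3b1, Nr0b1, Cyp21a1, Cyp17a1 and Cyp11b2 lay below the medians, as did all 5 markers each of endothelium and adrenal medulla. Of 6 fibroblast and 5 leukocyte markers 1 each lay above the medians, Col1a1 and Cd68, and both fell. In BIO, 10 of the 16 adrenocortical markers fell and 2 rose, where 15.6% of all 20719 genes fell and 17% rose, and the part of this in the retinoid gene changes was not tested. Whether the pairs came from separate cultures is not stated in the labels, and the spread behind each p-value may thus be technical in part. The values come from whole cultures, in which fewer cells expressing a gene and less RNA per cell cannot be told apart.

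Of the 9 retinoid genes, 5 fell with BIO and 0 rose, beside 15.6% and 17% of all genes. The 2 that fell most were Cyp26b1, which breaks retinoic acid down, and Dhrs3, which returns retinal to retinol. Smaller falls were seen in the retinal dehydrogenases Aldh1a1 and Aldh1a2 and in the binding protein Crabp1, while Rdh10, Aldh1a3, Aldh1a7 and Crabp2 did not pass. Calls are those of limma with the pair as a block and an adjusted p under 0.05 over all genes. By this rule 32.7% of all genes passed in either direction. The median change of the 9 genes was -0.28 log2, beside -0.013 over all genes.

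These 4 promoter sequences are shown because they belong to the 2 genes with the largest falls and to the paralogues Aldh1a1 and Aldh1a7. They are from RefSeq, build GRCm38.p6, and run from 250 bases before to 50 after a transcription start. Capitals mark a half-site of the retinoic acid receptor (AGGTCA, with the variant forms GGGTCA, also AGTTCA, and also GGTTCA), a core of the TCF/LEF factors that act with β-catenin (CTTTGAA, or else CTTTGAT) or a core of the aryl hydrocarbon receptor (GCGTG), searched on both strands with overlaps allowed.
Cyp26b1, chr6:84593761-84594060, minus strand: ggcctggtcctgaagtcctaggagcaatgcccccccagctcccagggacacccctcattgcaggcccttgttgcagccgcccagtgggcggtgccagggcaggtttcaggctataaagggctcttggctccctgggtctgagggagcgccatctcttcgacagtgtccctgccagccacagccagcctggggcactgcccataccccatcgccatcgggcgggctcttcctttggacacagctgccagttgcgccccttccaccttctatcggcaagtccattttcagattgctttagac
Dhrs3, chr4:144892827-144893126, plus strand, the second of 3 listed starts: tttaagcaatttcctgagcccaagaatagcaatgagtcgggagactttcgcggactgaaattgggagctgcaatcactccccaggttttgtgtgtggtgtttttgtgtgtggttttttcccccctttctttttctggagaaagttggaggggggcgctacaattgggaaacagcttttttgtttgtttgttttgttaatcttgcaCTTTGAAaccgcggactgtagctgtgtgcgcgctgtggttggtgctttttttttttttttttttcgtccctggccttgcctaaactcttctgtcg
Aldh1a1, chr19:20601718-20602017, plus strand, the second of 2 listed starts: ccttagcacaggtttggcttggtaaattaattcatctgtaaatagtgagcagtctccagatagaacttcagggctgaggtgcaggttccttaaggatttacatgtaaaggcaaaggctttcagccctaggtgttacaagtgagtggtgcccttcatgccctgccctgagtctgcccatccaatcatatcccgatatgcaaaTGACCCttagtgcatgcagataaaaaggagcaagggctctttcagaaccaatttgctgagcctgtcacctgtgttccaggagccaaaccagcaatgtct
Aldh1a7, chr19:20727507-20727806, minus strand: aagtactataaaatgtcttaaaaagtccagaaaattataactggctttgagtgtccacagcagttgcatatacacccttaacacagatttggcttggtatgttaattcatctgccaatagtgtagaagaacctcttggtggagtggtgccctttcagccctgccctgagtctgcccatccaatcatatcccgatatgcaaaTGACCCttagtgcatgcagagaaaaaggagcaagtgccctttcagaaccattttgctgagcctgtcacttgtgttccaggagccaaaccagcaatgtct

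Promoters were listed for 6 of the 9 genes, with 9 starts in all. The Cyp26b1 window held none of these letters, and the Dhrs3 window held 1 TCF/LEF core, CTTTGAA, at position -45. The first listed start of Dhrs3, not printed, held none, and the third, whose window overlaps most of the printed one, held the same core at -105. A TCF/LEF core occurred in 8.65% of the 32851 listed promoter windows, a half-site in 43.7% and an aryl hydrocarbon receptor core in 32.4%. Aldh1a1 and its neighbour Aldh1a7 held the same half-site at position -49. Their windows were compared position by position, with no alignment. They were identical at 95 of 100 bases from -50 to 50 but at 82 of 200 bases further upstream. Stretches that are alike but shifted count as different, so the lower upstream count does not measure how alike the sequences are there. The first listed start of Aldh1a1, not printed, held 2 TCF/LEF cores, and the windows of Aldh1a2 and Crabp1 held 1 and 2 aryl hydrocarbon receptor cores. No window of these genes held half-sites repeated in one direction at a spacing of 1, 2 or 5 bases, which occurred in 0.222%, 0.268% and 0.0974% of all windows. These matches describe the letters only.

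Cyp26b1 encodes a cytochrome P450 that hydroxylates retinoic acid and so removes it. Its vehicle values in pairs 1 to 4 were 8.32, 8.96, 8.66 and 8.47 log2, and its BIO values were 6.85, 7.05, 6.89 and 6.49. The highest BIO array, that of pair 2, lay well below the lowest vehicle array, that of pair 1, so the groups did not overlap. The means were 8.60 ± 0.27 and 6.82 ± 0.24 (SD, n = 4 arrays each), a 3.44-fold fall (log2 change -1.78 ± 0.08, SE, limma adjusted p = 3.42e-06). Of all genes, 47 fell as much or more, Cyp26b1 included, which is 1.45% of the genes that fell. The call held under each alternative run, with log2 changes from -1.89 to -1.72.

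The other members of the CYP26 family were dim and did not pass. Cyp26a1, the form most often used as a marker of retinoic acid action, was at 4.09 ± 0.11 log2 in vehicle and 4.03 ± 0.12 in BIO (SD, n = 4), and Cyp26c1 was at 4.21 ± 0.06 and 4.19 ± 0.09. The differences were -0.059 log2 (95% interval -0.16 to 0.039) and -0.024 (-0.14 to 0.088). Both lay well below the array medians, and whether such probe sets stand above background is unknown.

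Dhrs3 encodes a short-chain reductase that turns retinal back into retinol. In vehicle it was at 6.80, 5.75, 6.39 and 6.51 log2 in pairs 1 to 4, and in BIO at 5.38, 5.12, 5.12 and 5.37. The BIO arrays all lay below the lowest vehicle array, that of pair 2, and they were closer together than the vehicle arrays. The means were 6.36 ± 0.44 and 5.25 ± 0.15 (SD, n = 4), a 2.16-fold fall (-1.11 ± 0.11, SE, limma adjusted p = 0.000152). The change was -0.63 log2 in pair 2 and between -1.42 and -1.13 in the others. The BIO values lie below the array medians, where RMA compresses signals, so the fold may be understated. The 95% interval of the change, -1.37 to -0.85, did not overlap that of Cyp26b1, -1.97 to -1.60.

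**Figure D1:**
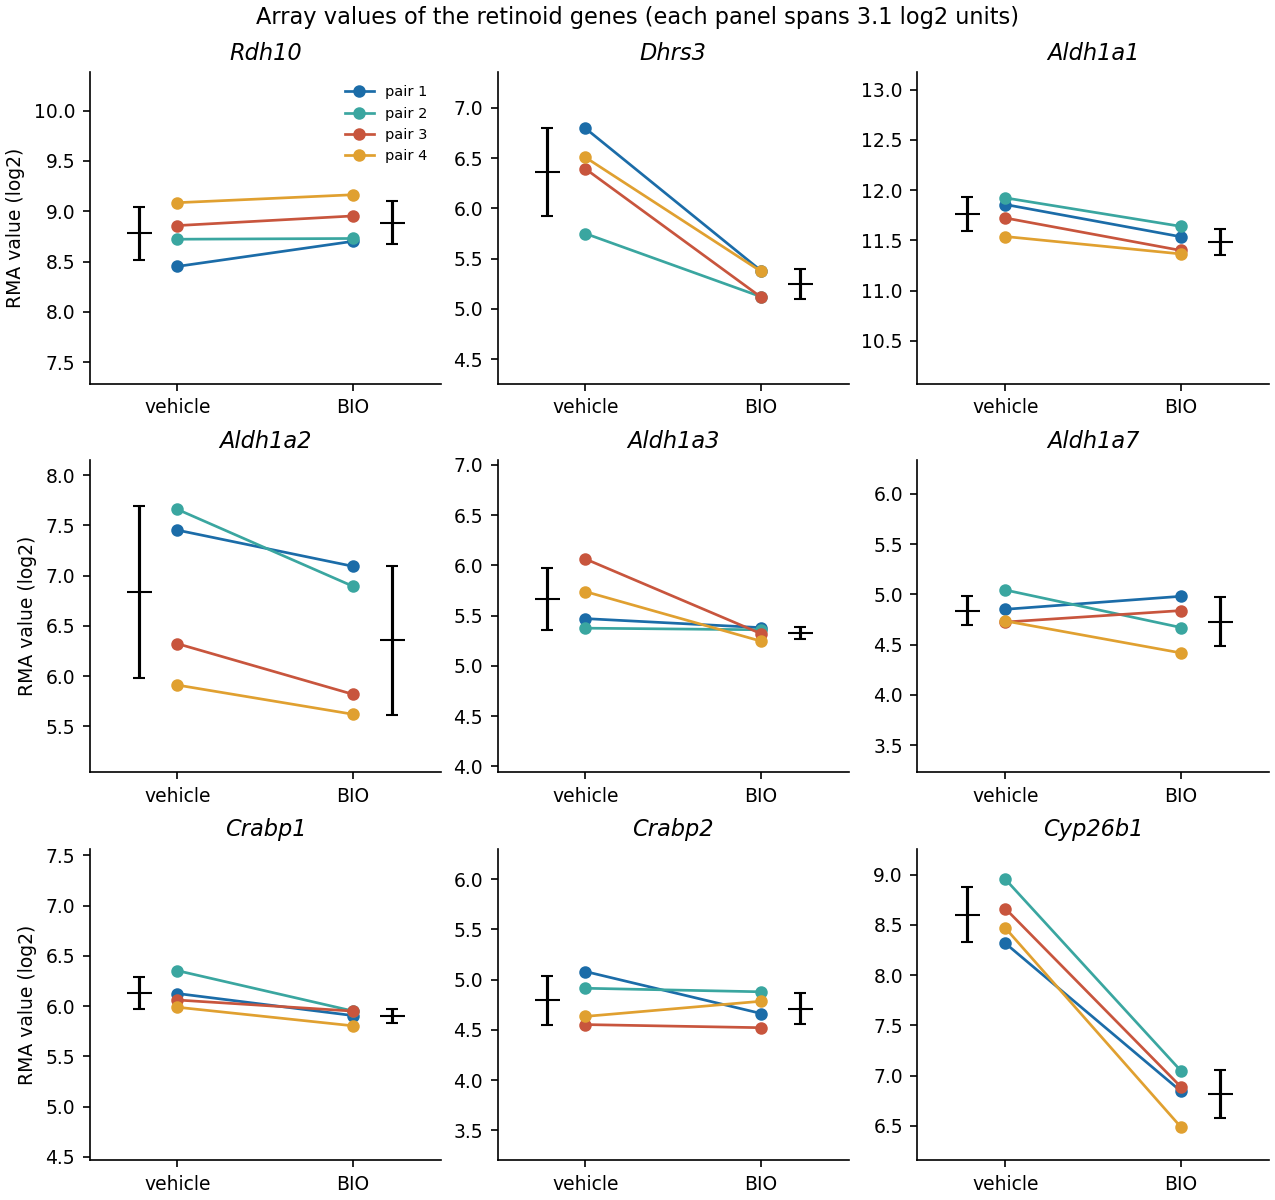
RMA values (log2) of the 9 retinoid genes on each array, with lines joining the vehicle and BIO arrays of a pair and bars at the mean ± SD of 4 arrays. All 4 lines of Cyp26b1 and Dhrs3 drop to BIO values below every vehicle value, and the pairs of Aldh1a2 lie farthest apart, with pair means that span 1.51 log2 units.

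Rdh10 encodes the dehydrogenase that makes retinal from retinol, the step that DHRS3 opposes. Its values in pairs 1 to 4 were 8.45, 8.72, 8.86 and 9.09 log2 in vehicle and 8.70, 8.73, 8.95 and 9.16 in BIO. BIO was the higher array in 4 of 4 pairs, which is so for 23.4% of all genes, but the groups overlapped. The difference of 0.11 ± 0.05 log2 (SE, 95% interval -0.012 to 0.23) did not pass (limma adjusted p = 0.161). The interval excludes a fall of the size seen for Dhrs3.

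Of the retinal dehydrogenases, Aldh1a1 encodes a form known to be abundant in the adrenal cortex. It was at 11.86, 11.92, 11.72 and 11.54 log2 in vehicle in pairs 1 to 4, and at 11.54, 11.64, 11.40 and 11.36 in BIO. Every pair was lower in BIO, though the BIO array of pair 2 lay above the vehicle array of pair 4. The fall was 1.21-fold (-0.28 ± 0.05, SE, limma adjusted p = 0.00244). Without the pair block the adjusted p was 0.0571.

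Aldh1a2, the main retinal dehydrogenase of the early embryo, differed more between pairs than between treatments. Its vehicle values were 7.45 and 7.66 log2 in pairs 1 and 2 but 6.32 and 5.91 in pairs 3 and 4. In BIO they were 7.09, 6.89, 5.82 and 5.62. The pair means thus spanned 1.51 log2 units, against a BIO change of -0.48 ± 0.08 (SE, 1.39-fold lower, limma adjusted p = 0.00172). The changes in pairs 1 to 4 were -0.36, -0.77, -0.50 and -0.29. The groups overlapped widely. The pair means of Rdh10, Aldh1a1, Aldh1a7, Crabp1 and Crabp2 also spanned more than their BIO difference, but by ranges of 0.256 to 0.549 log2. For Aldh1a2 the adjusted p without the block was 0.516, and it was 0.0763 when computed from the deposited paired p-values of the authors, after Benjamini-Hochberg adjustment.

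Aldh1a3, another retinal dehydrogenase, was lower in 4 of 4 pairs but did not pass. It was at 5.47, 5.38, 6.06 and 5.74 log2 in vehicle and at 5.38, 5.36, 5.32 and 5.25 in BIO. The BIO arrays were alike, and the vehicle arrays of pairs 3 and 4 stood above the rest. The changes were therefore -0.09 and -0.016 in pairs 1 and 2, against -0.74 and -0.49 in pairs 3 and 4. The mean difference of -0.34 ± 0.11 (SE) had a limma adjusted p of 0.0527, which was 0.0228 without replicate 2, 0.044 under an intensity-dependent robust prior and 0.0488 after removal of the dimmest 25% of genes. It was 0.0964 with no pair block, 0.292 with the deposited paired p-values, 0.168 without replicate 4 and 0.187 without replicate 3, where the difference was -0.20.

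Aldh1a7 is a rodent paralogue of Aldh1a1, close to it in sequence, with little known activity on retinal. It was at 4.84 ± 0.15 log2 in vehicle and 4.73 ± 0.24 in BIO (SD, n = 4). It was lower in BIO in pairs 2 and 4 (-0.37 and -0.32) and higher in pairs 1 and 3 (0.13 and 0.11). The difference of -0.11 log2 (95% interval -0.32 to 0.10, limma adjusted p = 0.419) did not pass, and its interval includes the change of Aldh1a1. Probes for the 2 genes may share signal because of their similarity, which the deposited values cannot separate.

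**Figure D2:**
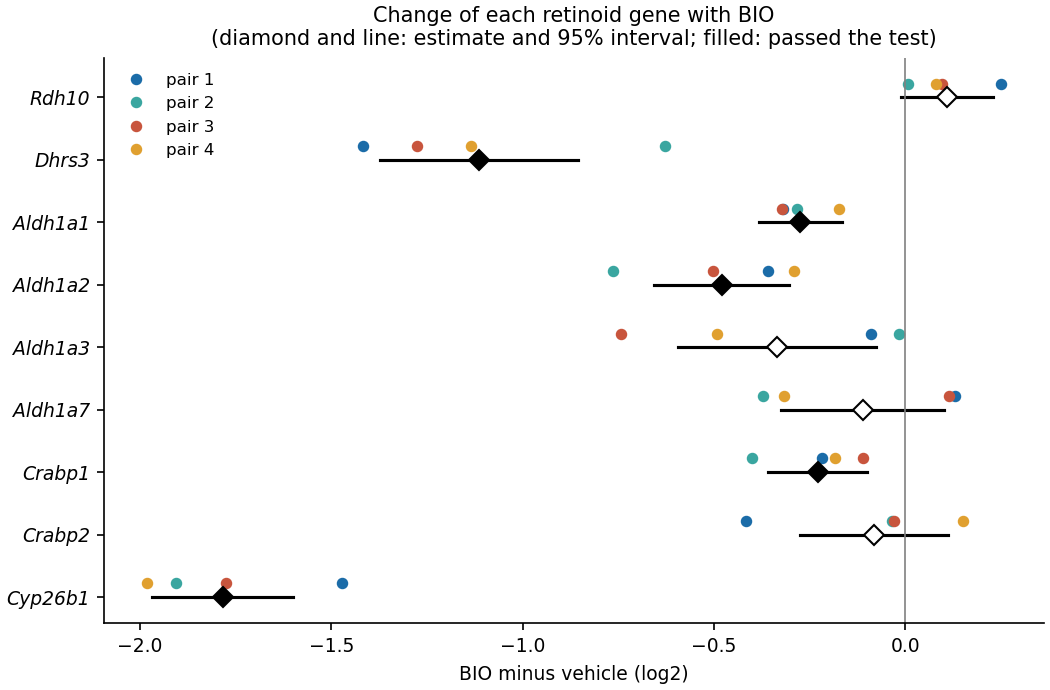
BIO minus vehicle (log2) of the 9 retinoid genes, with the estimate and its 95% interval as a diamond and line, filled where the gene passed, and the 4 pairs as coloured points. Cyp26b1 and Dhrs3 lie left of the others, and the intervals of Rdh10, Aldh1a7 and Crabp2 include 0.

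Of the binding proteins, Crabp1 encodes the carrier often linked to delivery of retinoic acid to its breakdown. It was at 6.12, 6.35, 6.06 and 5.99 log2 in vehicle and at 5.91, 5.95, 5.95 and 5.80 in BIO. The groups lay side by side without overlap. The fall was 1.17-fold (-0.23 ± 0.06, SE, limma adjusted p = 0.0144), but the adjusted p rose to 0.053 without replicate 2, to 0.0607 with no pair block and to 0.109 with the deposited paired p-values. Crabp2, which hands retinoic acid to its receptor, was at 4.80 ± 0.25 log2 in vehicle and 4.71 ± 0.15 in BIO (SD, n = 4), with a difference of -0.083 (95% interval -0.28 to 0.11, adjusted p = 0.515). The sign of the Crabp2 difference turned without replicate 1 (0.028), the pair that fell by 0.42, whereas pair 4 was 0.15 higher in BIO.

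Of the 9 genes, 3 had BIO values that all lay below all vehicle values (Cyp26b1, Dhrs3 and Crabp1), against 12.9% of all genes. Of the same genes, 6 were lower in 4 of 4 pairs, against 23.5% of all genes. Falls as large as that of Aldh1a1 or Crabp1 were common in this comparison. Of the genes that fell, 57.2% fell at least as much as Aldh1a1 and 70.02% at least as much as Crabp1, and 5.41% fell as much as Dhrs3.

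**Figure D3:**
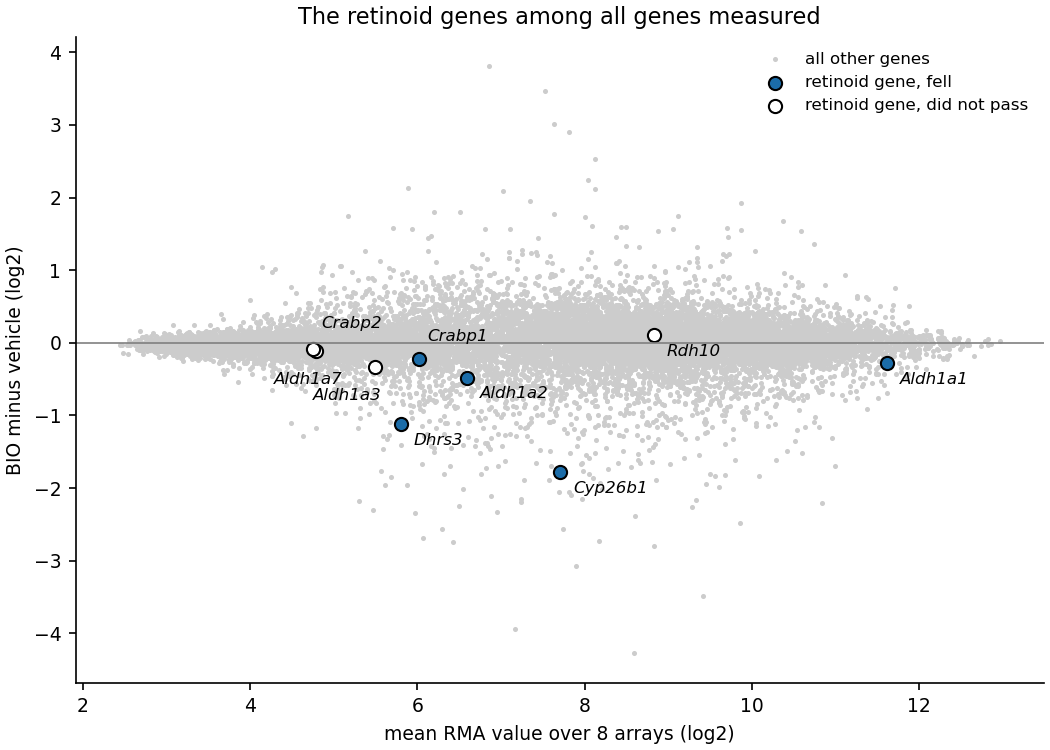
BIO minus vehicle (log2) against the mean RMA value over 8 arrays (log2) for each of 20719 genes (grey), with the retinoid genes marked, filled where they fell. Cyp26b1 and Dhrs3 lie at the lower edge of the cloud, and the other members lie within or close to it.

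The genes whose changes in the 4 pairs were nearest to those of Cyp26b1 were Fam198b, Sema3a, which encodes a secreted guidance protein, and S100a6, which encodes a calcium-binding protein. Their root mean square differences from Cyp26b1 over the 4 pairs were 0.0986, 0.122 and 0.139 log2. Cyp26b1 changed by -1.47, -1.91, -1.77 and -1.98 log2 in pairs 1 to 4, and Fam198b by -1.52, -1.96, -1.59 and -2.02. The mean changes of Sema3a and S100a6 were -1.83 and -1.71 log2. These genes were selected for likeness, which is a description over 4 pairs.

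Around the 9 genes, 95 further genes linked to retinoid handling and response were measured. They include receptor co-factors and some aldehyde dehydrogenases that do not act on retinal. Of the 95 genes, 18 rose, 20 fell and 57 did not pass. These shares lie near those of all genes, of which 17% rose and 15.6% fell. The median change was -0.029 log2, close to that of all genes. Among 20 oxidoreductases that can act on retinol or retinal, 6 rose and 2 fell, beside 17% and 15.6% of all genes. Dhrs9, a retinol dehydrogenase of the same enzyme class as RDH10, rose from 4.36 ± 0.13 to 5.34 ± 0.20 log2 (SD, n = 4, 1.97-fold, limma adjusted p = 5.63e-05), with every BIO array above every vehicle array. Both levels of Dhrs9 lie below the array medians, and whether its vehicle level stands above background is unknown, so the fold may be understated. Dhrs7 (0.49 ± 0.10 log2, SE), Adh1, an alcohol dehydrogenase that oxidizes retinol (0.45 ± 0.10), and Rdh9 (0.41 ± 0.05), one of several similar Rdh genes whose probes may share signal, rose too. Adh1 also differed widely between pairs, with vehicle values that fell step by step from pair 1 to 4 (8.64, 7.77, 7.16 and 6.55 log2). With no block its adjusted p was 0.596. With the deposited paired p-values neither Adh1 (adjusted p = 0.166) nor Dhrs7 (0.142) passed.

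Of 11 other aldehyde dehydrogenases, 6 rose and 2 fell, beside 17% and 15.6% of all genes. The largest changes were in enzymes that do not act on retinal. Aldh1l2 and Aldh1l1, the mitochondrial and cytosolic enzymes that oxidize formyl-tetrahydrofolate, moved apart, by 1.67 ± 0.09 and -0.67 ± 0.04 log2 (SE). Aldh18a1, an enzyme of proline synthesis, rose by 0.93 ± 0.05 and Aldh9a1, which acts on aminoaldehydes, by 0.55 ± 0.05. The limma adjusted p of these 4 genes was at most 5.61e-05.

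Among the uptake and carrier genes the largest change was that of Fabp5. Fabp5 encodes a fatty acid carrier that can also take up retinoic acid, and it fell 2.02-fold from 10.72 ± 0.21 to 9.71 ± 0.17 log2 (SD, n = 4, limma adjusted p = 4.8e-06). A second probe set annotated to Fabp5 fell alike, by 1.04 log2, but whether it reads a signal of its own is unknown. Rbp4, the retinol carrier of plasma, did not pass (0.19, 95% interval -0.032 to 0.42). Of 12 genes of uptake and storage 1 rose and 2 fell, beside 17% and 15.6% of all genes. Stra6, the retinol uptake receptor, rose (0.34 ± 0.08, SE, adjusted p = 0.00976, or 0.137 with the deposited paired p-values). Lipe, a lipase (-0.43 ± 0.06), and Scarb1, a lipoprotein receptor (-0.21 ± 0.05), fell. A dimmer second probe set of Lipe differed by -0.029 log2, and Scarb1 did not pass when pair 3 was removed (adjusted p = 0.0632) or with the deposited paired p-values (0.0545). Lrat, which stores retinol as an ester, was at 4.53 ± 0.08 and 4.47 ± 0.07 log2 (SD, n = 4) and did not pass.

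Among 6 measured P450 and conjugating genes that can act on retinoids besides Cyp26b1, 2 rose, beside 17% of all genes. These were Cyp1b1 (1.58 ± 0.12 log2, SE) and Cyp1a1 (1.01 ± 0.14). A second probe set of Cyp1b1, dim in vehicle at 4.71 log2, was 0.89 higher in BIO, and the mean over both gave 1.23. Both genes are known targets of the aryl hydrocarbon receptor, for which indirubins are ligands. Whether that receptor had a part in these rises was not tested. Cyp1a1 did not pass with the deposited paired p-values (adjusted p = 0.0794). Cyp1a1 was at 3.79 log2 in vehicle and 4.80 in BIO, both below the array medians. Whether its vehicle level stands above background is unknown. Its rise was 1.68 log2 in pair 1 and between 0.67 and 0.85 in the others. The rises of Cyp1b1 and Cyp1a1 were thus opposite in direction to the fall of Cyp26b1.

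**Figure D4:**
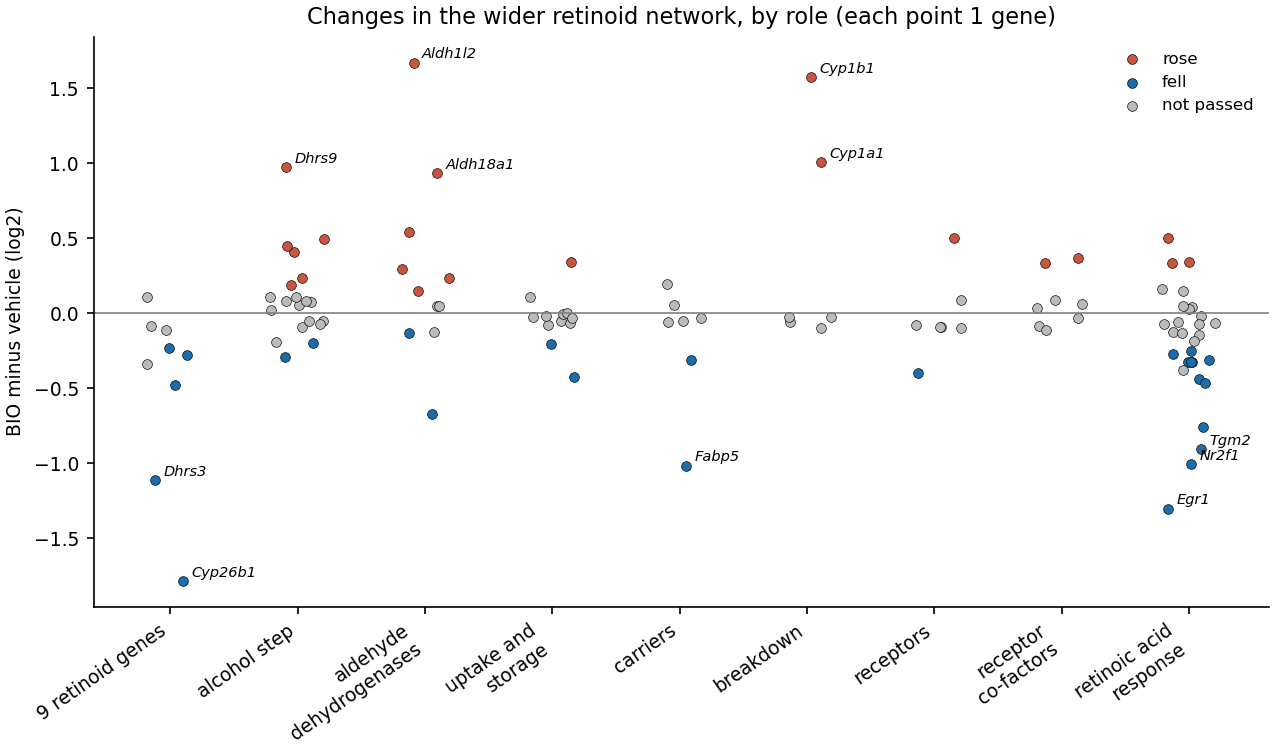
BIO minus vehicle (log2) of the 9 retinoid genes and of 8 lists of related genes, each point 1 gene, coloured by whether it rose, fell or did not pass (some genes stand in 2 lists). Cyp26b1 and Dhrs3 are among the lowest points, Fabp5 is the lowest carrier, and Aldh1l2 and Cyp1b1 are the highest points.

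Of 7 receptor genes listed, which include Ppard, 1 rose, 1 fell and 5 did not pass. Over all genes 17% rose and 15.6% fell. Rara, which encodes RARα, was at 8.96, 9.14, 9.03 and 9.15 log2 in vehicle and at 8.64, 8.65, 8.61 and 8.79 in BIO. It fell 1.32-fold (-0.40 ± 0.05, SE, limma adjusted p = 0.000374). Rarb, which encodes RARβ and is itself a classical target of retinoic acid, was at 9.18, 8.86, 8.87 and 8.87 log2 in vehicle and at 9.58, 9.32, 9.44 and 9.44 in BIO. It rose 1.41-fold (0.50 ± 0.05, adjusted p = 0.000135). The groups did not overlap for either gene. Rarg, Rxra, Rxrb and Rxrg did not pass, with differences between -0.101 and -0.078 log2. With cyclic loess normalization Rxra (-0.15, adjusted p = 0.0437) and Rxrb (-0.14, 0.0392) passed. Of 8 receptor co-factors 2 rose, beside 17% of all genes: Ncoa1 (0.37 ± 0.05) and Nrip1 (0.33 ± 0.05).

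Of 30 genes known from other systems to respond to retinoic acid, 3 rose, 12 fell and 15 did not pass, with a median change of -0.14 log2. Over all genes 17% rose and 15.6% fell. The risers were Rarb, Stra6 and Nrip1. The largest falls were those of Egr1, an immediate early factor (-1.30 ± 0.08, SE), Nr2f1, which encodes the orphan receptor COUP-TFI (from 9.19 to 8.18 log2), Tgm2, which encodes tissue transglutaminase (-0.91 ± 0.07), and Foxa1, a pioneer factor (-0.76 ± 0.06), with limma adjusted p of at most 0.000102. Each of these genes also responds to other signals. Tgm2 was at 9.08, 8.16, 9.20 and 9.36 log2 in vehicle and at 8.03, 7.50, 8.25 and 8.40 in BIO, so that the vehicle array of pair 2 lay within the BIO range while every pair fell.

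The authors' deposited table also holds the fold changes of another experiment, headed as 3 Wnt against 4 SF1 samples, which the sources used here describe no further. In the authors' deposited table, Dhrs3 and Cyp26b1 had Wnt over SF1 ratios of 0.384 and 0.563, with unadjusted p-values of 0.08 and 0.0685. Aldh1a2 had a ratio of 2.65 (unadjusted p = 0.0259) in the authors' deposited table, opposite in direction to its fall with BIO. Crabp1, which also fell with BIO, likewise had a ratio above 1 in the authors' deposited table (1.78, unadjusted p = 0.0986). The other 5 genes had unadjusted p-values from 0.114 to 0.678 in the authors' deposited table. After Benjamini-Hochberg adjustment of the authors' deposited p-values over the same genes, the lowest value among the 9 genes was 0.341, so none passed.

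**Figure D5:**
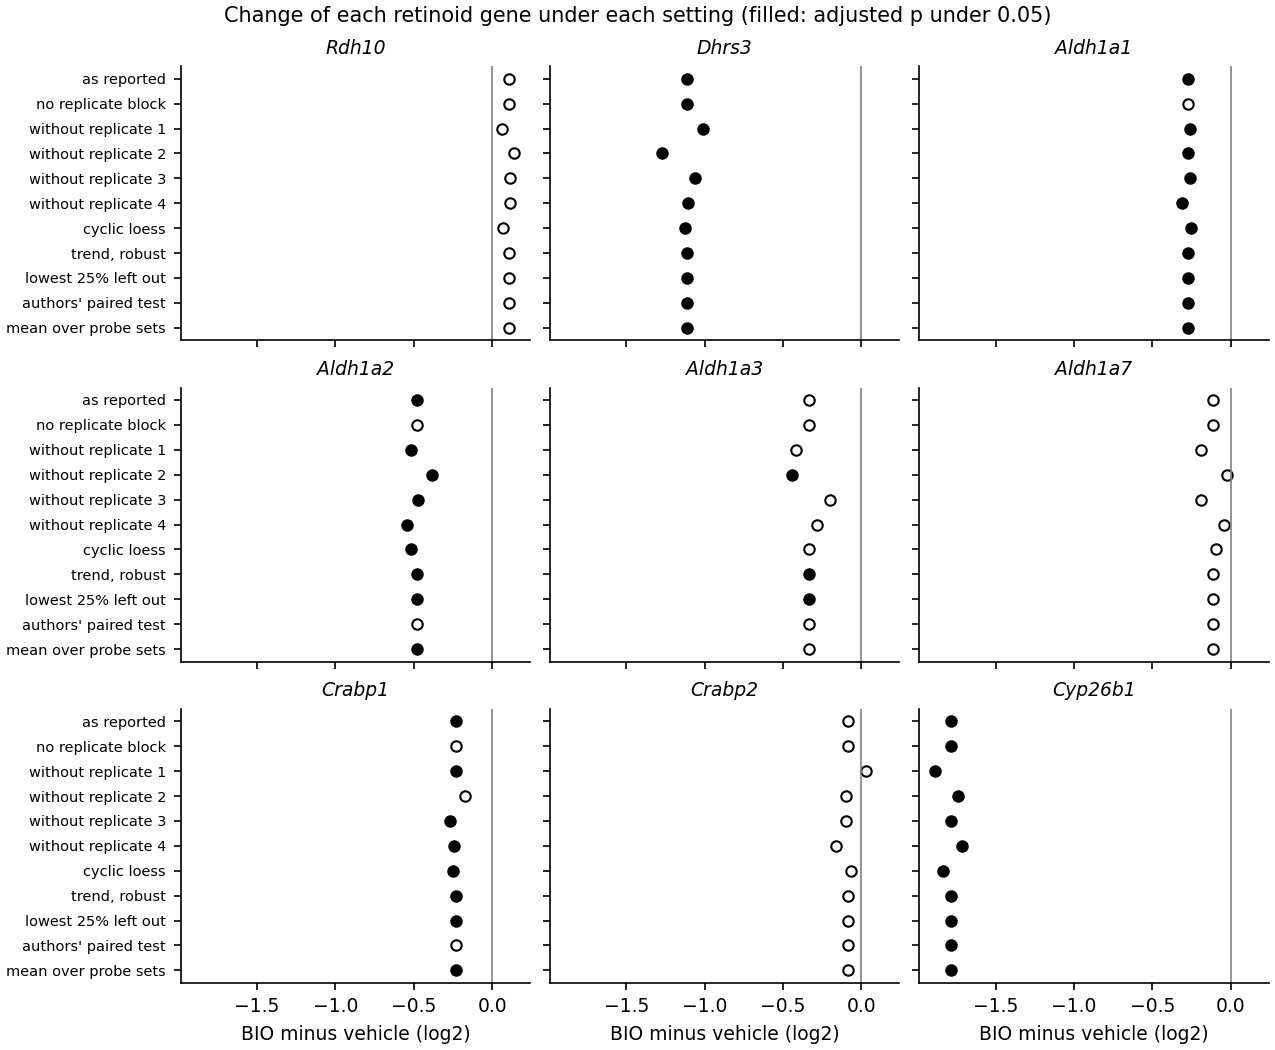
BIO minus vehicle (log2) of each retinoid gene as reported and under 10 alternative settings, filled where the adjusted p was under 0.05. Cyp26b1 and Dhrs3 are filled in all rows, Rdh10, Aldh1a7 and Crabp2 in none, and the others in some.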

How the data were processed

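Total RNA was hybridised to Mouse Gene 1.1 ST array strips, per the labels' protocols. The log2 values deposited are RMA values from perfect-match probes, per the file headers, made with oligo, per the submitters' processing notes. The tool version and the genome build remain not given in the sources used here. The authors also deposited unadjusted p-values of a paired t-test and fold ratios.

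Of 28944 probe sets, 23812 had a symbol, and each of 20719 genes was represented by its probe set of highest mean. Each of the 9 genes had 1. Entrez IDs of 20480 genes matched the RefSeq table of GRCm38.p6, used for names. BIO minus vehicle was fitted with limma 3.58.1 (lmFit, eBayes) in R 4.3.3 as a two-sided test with pair as block, and p-values were adjusted by Benjamini-Hochberg over all genes. The pairing comes from the titles. After subtraction of group means, the arrays of pairs 1 to 4 correlated across genes (which are not independent) at 0.446, 0.578, 0.385 and 0.617. Arrays of pairs 1 and 2 also correlated across pairs (0.243 and 0.284), as did those of pairs 3 and 4 (0.392 and 0.277), so that vehicle 3 was as close to BIO 4 as to BIO 3. Correlations between these sets ran from -0.504 to -0.214. Deviations from a group mean cancel out within the group, so positive values within the sets entail negative ones between them. The negative values are thus no separate evidence of structure. With 4 pairs an exact sign-flip test of 1 gene allows no p under 0.125, so calls rest on limma's shared estimate of spread. The procedure was tested on simulated data. The simulated noise was independent between arrays and far fewer genes were changed than pass here, so the outcome is not carried over to these data.

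The genes and lists were chosen with earlier results of these data known. Named were the 9 genes, up to 4 passing genes of each of 8 lists with the largest change, the receptors and 6 fixed pathway genes, Axin2, and 3 genes nearest to Cyp26b1 by pair changes. Of the genes this rule names, 1 is not reported here.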

Additional observations from a re-analysis of the deposited data

Results flagged for a closer look

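Among 88 sets of 4 arrays of the named genes, 2 had 1 array far from the other 3 by Dixon's test, which chance alone flags in about 1 of 20. In vehicle, replicate 1 of Rarb stood at 9.18 log2 above the other 3 arrays. In vehicle, replicate 4 of Rxra stood at 8.19 log2 above the other 3. None of the 9 retinoid genes had such an array.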

How the results depend on the processing

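The falls of Cyp26b1 and Dhrs3 kept their call under all 10 alternatives. Dhrs3 changed by -1.28 to -1.01 log2 and Cyp26b1 by -1.89 to -1.72 when 1 replicate was left out. Without the pair block 2 of the 9 genes fell rather than 5, beside 2329 rather than 3236 of all 20719 genes. In that setting the calls of Aldh1a1 (-0.28), Aldh1a2 (-0.48) and Crabp1 (-0.23) were lost at the same log2 changes. By the authors' paired test 3 of the 9 fell, with Aldh1a2 (-0.48) and Crabp1 (-0.23) lost. That test uses each gene's own spread, and passed 3947 genes in all (2057 higher, 1890 lower, against 6767 in limma). Among the 95 further genes it gave 11 rather than 18 risers. Aldh1a3 (-0.34) passed under an intensity-dependent robust prior and after removal of the dimmest 25% of genes. Leaving out 1 replicate at a time, its change ran from -0.44 to -0.20, that of Crabp1 from -0.27 to -0.17, and that of Crabp2 from -0.16 to 0.028. Cyp26c1 ran from -0.046 to 0.013 and turned sign without replicate 3 and with cyclic loess normalization (0.00012). No scaling alternative turned the sign of any of the 9 genes. The causes of these differences were not tested. The lack of a detection call limits what can be said of Aldh1a7, Crabp2, Aldh1a3 and the other dim genes.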
